A study of Mus musculus with 5 samples.

Results

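The genes of cholesterol and fatty acid synthesis were followed across 5 arrays of mouse prostate tumour cells. A list of 30 genes was used, and its members are the probe sets annotated with exactly 1 of these symbols. This gave 69 of the 45037 probe sets on the arrays, for 29 of the 30 genes; Acat2 was not analysed here. The sterol arm had 17 genes (40 probe sets), the fatty acid arm 7 genes (20 probe sets), and 5 genes (9 probe sets) control both arms.

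Single-channel Affymetrix arrays were hybridised with biotin-labelled total RNA, 1 array per mouse, from C57BL/6 mice. Tumours had been dissociated on ice and their epithelial cells captured with EpCAM beads. The 3 nDKO mice carry floxed alleles of Smad4 and of 1 further gene, recombined under the Probasin promoter, which is active in prostate epithelium. The 2 nTKO mice carry both of these and floxed Pygo2 as well, so no array comes from a mouse without floxed Smad4. Pygo2 encodes a chromatin reader of methylated histone H3 that acts with beta-catenin, and the design asks what its loss changes in these tumour cells. The nDKO mice were 15.86, 10.71 and 10.71 weeks old (nDKO 1, 2 and 3), and the nTKO mice 31.43 and 16 weeks (nTKO 1 and 2), so age is partly confounded with genotype.

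Cells make cholesterol from acetyl-CoA through the mevalonate pathway, which yields isoprenoids, then squalene, then lanosterol, and finally cholesterol after a series of demethylations, reductions and isomerisations. The fatty acid arm uses the same acetyl-CoA to build palmitate, which is then elongated and desaturated. Both arms are switched on by the SREBP transcription factors, which are held in the endoplasmic reticulum by Scap and the Insig proteins when sterols are abundant and are released for processing when sterols run low. In the prostate both arms are known targets of androgen signalling, and fatty acid synthase is a long-studied enzyme of prostate cancer.

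SREBP and NF-Y, a factor known to work beside it, bind short elements close to the start of many of these genes, so the promoters of some members are shown first. RefSeq promoters of the build GRCm38.p6 were matched for 23 of the 29 genes (31 promoters), and not for Fdps, Fdft1, Sqle, Stard4, Scd1 and Scd2. The 250 bases before each annotated start were searched on both strands for 4 motifs. The SREBP element was searched as TCACNCCAC. The NF-Y box was searched as CCAAT, which reads as its reverse complement when it lies on the other strand. The E-box, which SREBP can also bind, was searched as CACGTG. The GC box, bound by factors of the Sp family, was searched as GGGCGG. The following 6 stretches are the 150 bases before the start, 5′ to 3′ on the gene's strand, with matches of the SREBP element, the NF-Y box and the E-box in capitals. Hmgcs1, Idi1, Nsdhl and Ebp are sterol genes with different patterns over the mice, and Fasn and Elovl6 belong to the fatty acid arm.
Hmgcs1: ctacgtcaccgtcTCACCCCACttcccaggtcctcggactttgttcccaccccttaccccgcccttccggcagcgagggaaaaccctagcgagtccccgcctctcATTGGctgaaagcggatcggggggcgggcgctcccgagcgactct
Idi1: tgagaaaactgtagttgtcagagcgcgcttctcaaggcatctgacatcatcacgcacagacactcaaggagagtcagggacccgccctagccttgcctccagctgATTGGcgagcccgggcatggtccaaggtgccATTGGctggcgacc
Nsdhl: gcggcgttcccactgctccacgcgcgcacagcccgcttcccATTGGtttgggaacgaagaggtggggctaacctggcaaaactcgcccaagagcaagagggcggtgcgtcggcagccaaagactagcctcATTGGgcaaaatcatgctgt
Ebp: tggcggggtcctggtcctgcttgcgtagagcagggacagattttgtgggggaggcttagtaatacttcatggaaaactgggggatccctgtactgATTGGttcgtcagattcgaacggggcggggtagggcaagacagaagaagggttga
Fasn: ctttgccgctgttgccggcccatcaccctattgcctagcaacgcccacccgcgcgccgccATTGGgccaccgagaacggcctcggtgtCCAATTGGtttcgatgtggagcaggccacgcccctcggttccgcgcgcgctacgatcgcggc
Elovl6: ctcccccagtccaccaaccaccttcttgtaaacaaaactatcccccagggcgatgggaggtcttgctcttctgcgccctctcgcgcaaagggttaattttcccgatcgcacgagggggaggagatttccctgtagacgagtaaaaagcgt

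These stretches lie at chr13:119690201-119690350 (plus strand) for Hmgcs1, chr13:8885456-8885605 (plus) for Idi1, chrX:72918371-72918520 (plus) for Nsdhl, chrX:8193513-8193662 (minus) for Ebp, chr11:120824548-120824697 (minus) for Fasn and chr3:129532236-129532385 (plus) for Elovl6. The SREBP element of Hmgcs1 begins 137 bases before its start, and it was the 1 match of that motif among the 31 member promoters, against 1.05% of all 32851 promoters. The NF-Y box was found for 13 of the 13 sterol genes with a promoter, 4 of 5 control genes and 2 of 5 fatty acid genes (Fasn and Acss2), against 37.5% of all genes in the table. Counted by promoter it was 20 of 31, against 33.8% of all promoters. Fasn held 3 such boxes, a pair of which overlap on opposite strands. The GC box was found for 12 sterol, 5 control and 2 fatty acid genes, against 35.4% of all genes. The E-box was found for 3, 2 and 0 genes in the same order, against 6.86%. Elovl6 and Acaca held no match of the 4 motifs in this window. The comparison promoters were not matched for base composition, and a match shows neither binding nor a link to the differences between mice.

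Pygo2, on the log2 scale of the deposited values, had nDKO signals of 8.65, 8.62 and 8.72 and nTKO signals of 7.30 and 6.35, so the arrays follow their labels for this gene. Smad4, floxed in every mouse, measured 9.63 to 10.37; whether its probe set lies in the deleted part was not tested, and no array without the floxed allele was there to compare. Array medians lay between 4.94 and 4.98. The oldest mouse of each genotype stood apart from the other arrays: across probe sets, Pearson correlations were 0.987 to 0.991 for pairs with nDKO 1 or nTKO 1 and 0.995 to 0.996 for the other pairs, as a description. The squamous marker list (9 of 9 genes measured) had medians of 10.13 (nDKO 1), 8.67 (nTKO 1) and 5.49 to 6.02 (the other mice). The neutrophil list (4 of 6 measured) had a median of 10.29 on the nTKO 1 array, of 7.93 to 8.57 over the nDKO mice and of 7.12 on the nTKO 2 array. Epithelial markers (6 of 6 measured) had array medians of 12.56 to 12.91. Among them the basal keratins followed the squamous list, with Krt5 at 13.10 (nDKO 1), 12.35 (nTKO 1) and 10.52 to 10.87 (the other mice), and Krt14 at 12.89, 11.90 and 9.96 to 11.17. Macrophage markers (7 of 7) had medians of 7.64 to 8.89 in nDKO and 7.36 to 8.15 in nTKO mice, and seminal vesicle genes (5 of 5) 8.86 in nDKO 1 and 12.37 to 13.61 in the others. Fibroblast markers (6 of 6) had array medians of 4.11 to 4.26, with Dcn well above them, at 7.87, 9.39 and 9.03 in nDKO mice, 6.41 in nTKO 1 and 9.52 in nTKO 2. Adipocyte markers, from a cell type with high lipid synthesis, had medians of 4.16 to 4.43. Of the 6 measured (of 9 listed), 5 had a mean below every array's own median, among them Adipoq at 2.91 to 3.27, and Retn was at 5.98 to 6.07. The part of these other cells in the results below was not tested, and in such bulk samples fewer cells of a type and less RNA per cell cannot be told apart.

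Between the genotypes, the means of most members were slightly lower in nTKO cells, but none of the 29 genes passed the test. In the limma fit over 18193 genes, 0 members had a Benjamini-Hochberg adjusted p under 0.05, against 0% of all genes, and the smallest adjusted p was 0.853. Pygo2, floxed in the nTKO mice only, did not pass either (log2 fold change -1.84, limma adjusted p 0.853). A member that does not pass is therefore not shown to be unchanged. An unadjusted p under 0.05 was found for 1 of the 29, on the higher side, where 2.46% of all genes lay, and for 0 on the lower side, where 1.33% lay (3.79% in all). Of the 17 sterol genes, 14 had a lower and 3 a higher mean in nTKO cells, with a median log2 fold change (nTKO minus nDKO) of -0.17. Of the 7 fatty acid genes, 5 were lower and 2 higher, with a median of -0.025, and of the 5 control genes 3 were lower and 2 higher, with a median of -0.048. Over all genes, 38.3% were lower and the median was 0.028. All 29 members lie at or above the median gene level of 6.32, where 43.7% of genes were lower and the median was 0.018. The groups did not overlap for 5 of the 29 members, 2 higher and 3 lower in nTKO cells. Over all genes it was 8.13% on the higher side and 4.71% on the lower. Of the 9099 genes at or above the median level, 805 did not overlap on the higher side and 678 on the lower (16.3% in all).

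The count of lower sterol genes rested on the 2 mice that stand apart. It was 14 of 17 with every mouse, 9 of 17 without nDKO 1, 7 of 17 without nTKO 1, and 3 of 17 without both. The arm's median was -0.03, 0.010 and 0.115 in these 3 settings. With log2 age as a covariate, 7 of the 17 were lower and the median was 0.0080. In the fatty acid arm 3 of the 7 genes were lower without nDKO 1, with a median of 0.18.

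**Figure D1:**
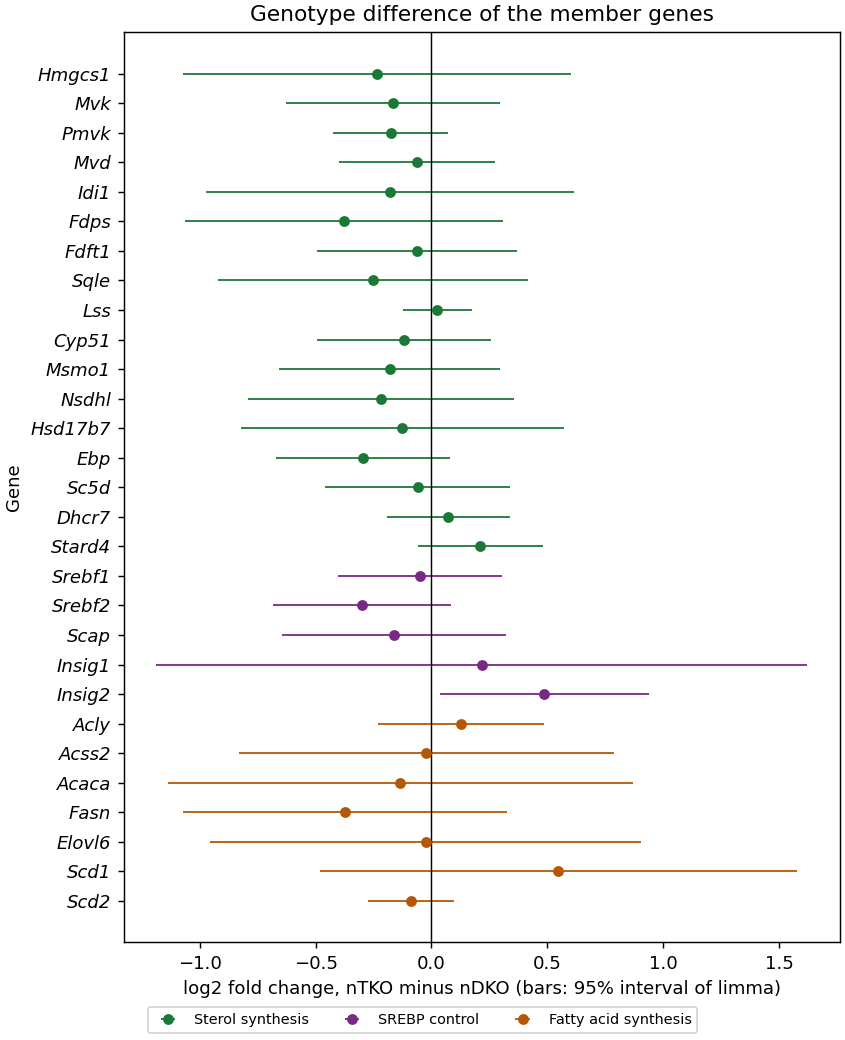
Difference between the genotypes for the 29 member genes, as log2 fold change (nTKO minus nDKO, x axis) with the 95% interval of the limma fit, coloured by arm. The interval of Insig2 lies above 0, from 0.035 to 0.94, and the other 28 intervals include 0.

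Among the control genes, Insig2 had the largest log2 fold change. It encodes an endoplasmic reticulum anchor that retains Scap and SREBP, and its signal in either nTKO mouse exceeded that of each nDKO mouse. The nDKO signals were 9.49, 9.71 and 9.82, and the nTKO signals 9.97 and 10.35. The log2 fold change was 0.49 (SE 0.17), or 140% of the nDKO level, with a limma p of 0.040 before adjustment and an adjusted p of 0.853. It was the 1 member with an unadjusted p under 0.05, against 3.79% of all genes. With 1 nDKO mouse left out, its unadjusted limma p was 0.056 to 0.099. The gene has 3 probe sets, and the other 2 gave 0.46 and 0.52, with groups that did not overlap either. It was 0.30 without nTKO 2 and 0.68 without nTKO 1, with adjusted p-values from limma of 0.271 to 0.918 over the alternatives tried.

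Insig1, its paralogue and itself a sensitive SREBP target, showed the widest spread between the nTKO mice. The nDKO signals were 7.0, 7.30 and 7.31, nTKO 1 measured 6.62 and nTKO 2 8.22. The nTKO mice therefore lay on opposite sides of the nDKO range, at 66.7% and 202% of the nDKO mean. The log2 fold change of 0.22 (SE 0.52) averages these opposite values, and it was 1.02 without nTKO 1 and -0.58 without nTKO 2.

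Srebf2, the SREBP gene that mainly drives the sterol arm, had lower signals in the nTKO mice, by a small margin in nTKO 2. The nDKO signals were 8.35, 8.16 and 8.27, and the nTKO signals 7.77 and 8.15. The log2 fold change was -0.30 (SE 0.14; adjusted p from limma 0.853), and -0.11 without nTKO 1. Its second probe set gave -0.12 with overlapping groups, as nTKO 2 measured 7.83, level with nDKO 1 and nDKO 2. Srebf1, which mainly drives fatty acid genes, ranged from 9.85 to 9.96 over the nDKO mice, with 9.68 in nTKO 1 and 10.05 in nTKO 2 (log2 fold change -0.048). Its probe set does not tell the SREBP-1a and SREBP-1c transcripts apart here. Scap, the escort of SREBP, was at -0.16, with its highest signal in nDKO 1 (10.05, against 9.52 to 9.73 in the other mice).

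**Figure D2:**
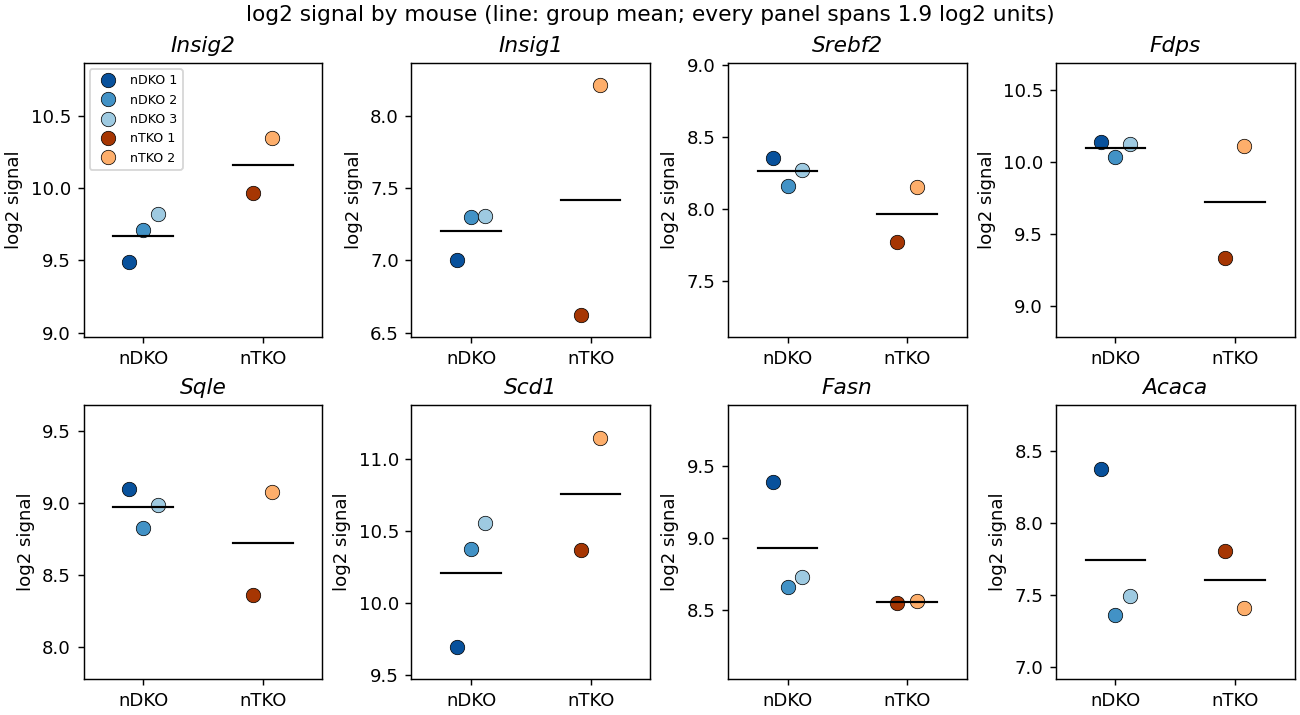
log2 signal (y axis) of 8 members in each mouse, by genotype (x axis), with a line at each group mean. Insig2 is higher in both nTKO mice, Insig1 splits them (6.62 and 8.22), Fdps and Sqle are low in nTKO 1, and Scd1 and Fasn show opposite ends for nDKO 1 (9.70, its lowest, and 9.39, its highest).

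In the sterol arm the main feature was nTKO 1, the oldest mouse. On that array, 12 of the 17 genes had their lowest signal, against 14% of all genes and 18.1% of the genes at or above the median gene level of 6.32, where all 17 lie. In nTKO 2, 2 of the 17 were below every nDKO mouse and 4 were above, against 20.3% of all genes on either side. The median difference from the nDKO mean was -0.29 in nTKO 1 and 0.010 in nTKO 2, against 0.040 and 0.0033 over all genes.

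Fdps, which makes farnesyl diphosphate, the branch point to sterols and prenylated proteins, showed the widest gap. The nDKO signals were 10.14, 10.03 and 10.12, nTKO 1 measured 9.33 and nTKO 2 10.11. The low mean of nTKO cells (log2 fold change -0.38, SE 0.25; adjusted p from limma 0.853) thus came from 1 mouse, at 58.8% of the nDKO mean, and was 0.013 without it. Sqle, the squalene epoxidase that starts the oxygen-dependent steps, measured 9.10, 8.83 and 8.99 over the nDKO mice, with 8.36 in nTKO 1 and 9.08 in nTKO 2. Nsdhl, which removes the methyl groups at carbon 4 of the sterol ring together with Msmo1, measured 8.86, 8.86 and 8.93, then 8.34 and 8.99. The groups overlapped for all 3 of these genes.

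By brightest probe sets, Ebp, the sterol isomerase, was the sterol enzyme whose groups did not overlap on the lower side. The nDKO signals were 9.36, 9.48 and 9.54, nTKO 1 measured 8.98 and nTKO 2 9.35, so nTKO 2 lay just below the nearest nDKO mouse, within the rounding of the values. Its log2 fold change was -0.30 (SE 0.14, limma adjusted p = 0.853), and -0.11 without nTKO 1. Nor did the groups overlap for the second probe set of Mvk (-0.20) and a dim one of Hmgcs1 (-0.32), both lower. For Mvk the nDKO signals there were 6.46, 6.37 and 6.37, and the nTKO signals 6.05 and 6.35.

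Hmgcs1, Idi1 and Hsd17b7 had a high signal in nDKO 1. Hmgcs1, which condenses acetyl-CoA units ahead of mevalonate, measured 10.81 in nDKO 1 against 10.02 and 10.01 in the other nDKO mice and 9.89 and 10.20 in nTKO mice. Idi1, the isomerase that makes the 2 isoprene building blocks interconvert, measured 9.56 in nDKO 1 against 8.72, 8.88, 8.77 and 8.98. Hsd17b7, a reductase of the later steps, measured 7.44 in nDKO 1 and 6.66 to 6.94 in the other mice. For these 3 genes the range within nDKO cells (0.78 to 0.84) was wider than the difference between the genotypes (-0.24, -0.18 and -0.13). In all, 9 of the 17 sterol genes were highest in nDKO 1, against 17.9% of all genes and 25.5% of those at or above the median gene level.

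The remaining mevalonate enzymes, the kinases Mvk and Pmvk and the decarboxylase Mvd, were lowest in nTKO 1, with log2 fold changes of -0.17, -0.18 and -0.063. So were the squalene synthase Fdft1 (-0.063), the lanosterol demethylase Cyp51 (-0.12) and the methyl oxidase Msmo1 (-0.18). Lss, the lanosterol synthase, hardly varied by its brightest probe set. That probe set measured 7.33 in each nDKO mouse, 7.31 in nTKO 1 and 7.40 in nTKO 2. A less bright probe set of Lss varied more, at 6.5 in each nDKO mouse, 6.3 in nTKO 1 and 6.85 in nTKO 2. The remaining one, which is dim, lay between 4.49 and 4.52. Sc5d, the desaturase before Dhcr7, was at -0.060 and highest in nDKO 1 (9.63).

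Dhcr7 and Stard4 ran the other way in nTKO 1. Dhcr7, the last reductase of the pathway, measured 8.31, 8.27 and 8.34 over the nDKO mice, with 8.51 in nTKO 1 and 8.25 in nTKO 2. Stard4, a cytosolic sterol carrier rather than an enzyme, had nDKO signals of 7.05, 6.90 and 7.05 and higher nTKO signals of 7.32 and 7.10. Its log2 fold change was 0.21 (SE 0.10; adjusted p from limma 0.853). Its other probe sets, both dim, gave 0.46 and -0.0017.

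**Figure D3:**
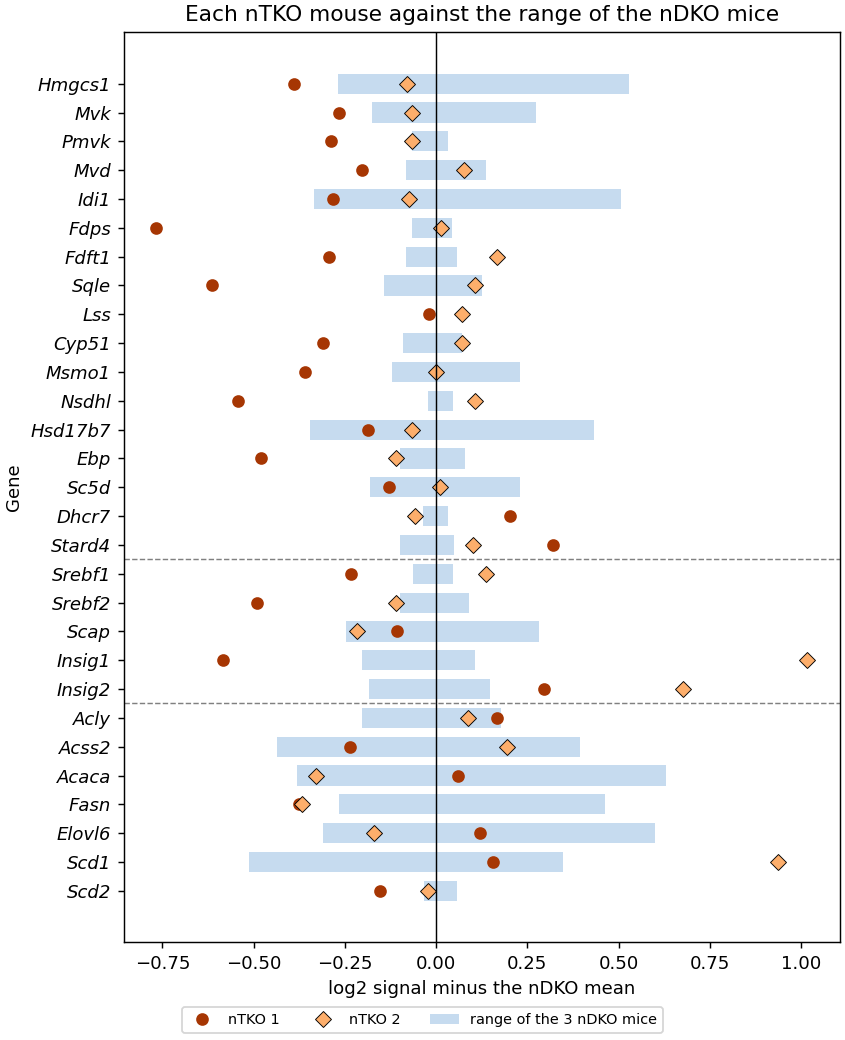
log2 signal of nTKO 1 (circles) and nTKO 2 (diamonds) minus the nDKO mean (x axis) for each member gene, with bars for the range of the 3 nDKO mice. Dashed lines separate sterol, control and fatty acid genes; nTKO 1 lies below the bar for 12 of 17 sterol genes and nTKO 2 for 2 of 17.

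Leaving out nTKO 2 set nTKO 1 alone against the nDKO mice. There 22 of the 29 members were lower and 7 higher, where 35.3% of all genes were lower. Of the 17 sterol genes 15 were lower, with a median log2 fold change of -0.29. Fdps had the largest difference (-0.77). A test in such a setting assumes that the lone mouse varies like the nDKO mice. Leaving out nTKO 1 instead, nTKO 2 was above the nDKO mean for 15 of the 29 members and below it for 13. Without both mice that stand apart, it was above for 20 and below for 9, where 46.6% of all genes were below. The next counts, at an unadjusted p under 0.05, take both directions together. Without nTKO 1 the count was 2 of 29, against 8.2% of all genes, and without both mice that stand apart it was 8 of 29, against 16.5%, with 0% called after adjustment in each of these settings.

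Probe sets of 1 gene gave much the same picture in the sterol arm. Of its 27 probe sets at or above the median gene level, 21 were lowest in nTKO 1 and 15 highest in nDKO 1. These include the 17 probe sets already used for the genes, with 12 and 9 so placed. The others measure the same genes on the same arrays. Hmgcs1 had 5 probe sets, all lower in nTKO cells (-0.32 to -0.18). The brightest probe sets of Hmgcs1, Fdft1, Hsd17b7, Mvd and Lss are of the kinds that may bind related transcripts, by the suffix of their names. Another, dimmer probe set of Hsd17b7 measured 6.18 in each nDKO mouse, 5.53 in nTKO 1 and 6.42 in nTKO 2, an order unlike that of the brightest. Over the 45037 probe sets, 0 of the 69 had a limma adjusted p under 0.05 (smallest 0.799), and 3 had an unadjusted p under 0.05, the 3 of Insig2, on the higher side, where 2.17% of all probe sets lay.

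**Figure D4:**
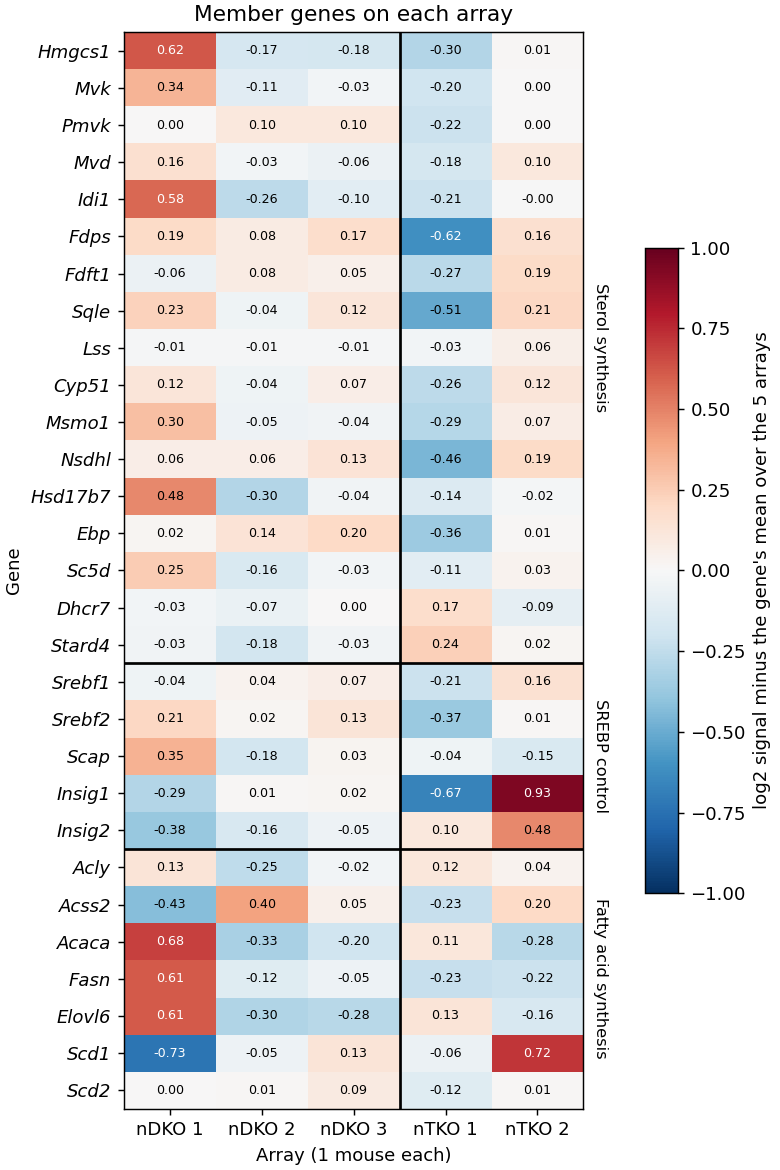
log2 signal of each member gene minus its own mean over the 5 arrays (colour and printed value), with genes in rows by arm and arrays in columns. The nTKO 1 column is negative for most sterol genes (Fdps -0.62), and the nDKO 1 column is positive for Hmgcs1 (0.62), Acaca (0.68), Fasn (0.61) and Elovl6 (0.61) and negative for Scd1 (-0.73).

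The fatty acid arm varied more between nDKO mice than between genotypes. By brightest probe sets, the range within nDKO cells exceeded the genotype difference for 7 of its 7 genes. It did so for 10 of the 17 sterol genes and 72.3% of all genes. For Scd2 the margin was narrow (range 0.09, difference -0.088). Its other probe sets went the other way, with differences of -0.455 and -0.505 and nDKO signals of 11.14 to 11.30 and 5.58 to 5.97. The median nDKO range was 0.83 in the fatty acid arm and 0.18 in the sterol arm, against 0.19 over all genes. The low nTKO 1 signal of the sterol arm was not seen to the same extent here, with 2 of the 7 genes lowest on that array and a median difference from the nDKO mean of 0.060. That contrast between the arms was not tested.

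By brightest probe sets, Fasn, the synthase that builds palmitate, was the fatty acid gene whose groups did not overlap. The nDKO signals were 9.39, 8.66 and 8.73, and the nTKO signals 8.55 and 8.56. The log2 fold change was -0.37 (SE 0.26, limma adjusted p = 0.853), and -0.14 without nDKO 1, whose signal was well above the rest. Less bright probe sets of other genes of the arm also had groups that did not overlap. Those of Acly (0.15) and Elovl6 (0.15, a dim one) were higher in nTKO cells, and that of Scd2 (-0.505) was lower.

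Acaca and Elovl6 shared the high signal of nDKO 1. Acaca, the carboxylase that makes malonyl-CoA, measured 8.37 in nDKO 1, 7.36 and 7.49 in the other nDKO mice, and 7.80 and 7.41 in nTKO mice. Elovl6, which elongates palmitate, measured 7.21 in nDKO 1, 6.30 and 6.32 in the other nDKO mice, and 6.73 and 6.44 in nTKO mice. For both genes nTKO 1 was the next highest array, and these are the 2 mice with the high squamous markers.

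Scd1 and Acss2 had the reverse order, with nDKO 1 lowest. Scd1, the desaturase that makes oleate, measured 9.70, 10.38 and 10.56 over the nDKO mice, with 10.37 in nTKO 1 and 11.15 in nTKO 2. Its log2 fold change was the largest of the members at 0.55 (SE 0.38, limma adjusted p = 0.853), with overlapping groups, and it was 0.16 without nTKO 2. Its second probe set gave 0.31. Acss2, which makes acetyl-CoA from acetate, measured 6.71 (nDKO 1) and 6.91 (nTKO 1), while nDKO 2, nDKO 3 and nTKO 2 were at 7.54, 7.19 and 7.34.

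Acly, which makes cytosolic acetyl-CoA from citrate for both arms, was at 0.13 by its brightest probe set, with signals of 10.04 to 10.42 that overlapped. The next brightest probe set of Acly gave 0.038, also with overlap. Another gave 0.15 without overlap, by a narrow margin. Its nDKO signals were 8.73, 8.42 and 8.66, and its nTKO signals 8.75 and 8.76. Scd2, a paralogue of Scd1, lay between 12.73 and 12.94 by its brightest probe set and was at -0.088. Its second probe set measured 11.14 to 11.30 over the nDKO mice, with 10.40 in nTKO 1 and 11.17 in nTKO 2, a log2 fold change of -0.455. Its remaining probe set, a dim one (5.02 to 5.97) gave -0.505, with groups that did not overlap.

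**Figure D5:**
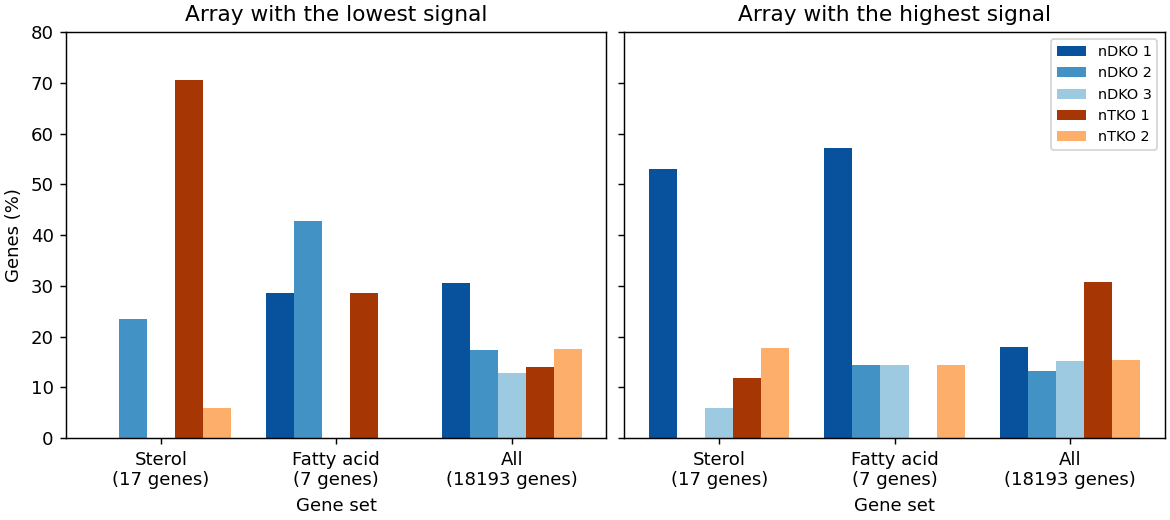
Share of genes (y axis, %) whose lowest signal (left) or highest signal (right) fell on each array, for the sterol arm, the fatty acid arm and all genes; ties count for no array. nTKO 1 was lowest for 70.6% of sterol genes and 14.0% of all genes, and nDKO 1 highest for 52.9% and 17.9%.

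Other genes of lipid synthesis, sterol export and SREBP processing were split much as all genes were. Of 42 listed genes, 38 were measured, 23 with a higher mean in nTKO cells (60.5%, against 60.0% of all genes) and 14 with a lower one. An unadjusted p under 0.05 was found for 3 of the 38, against 3.79% of all genes. None passed the limma test over all genes (smallest adjusted p 0.853). Dgat1, which completes triglycerides, had nDKO signals of 8.29, 8.15 and 8.14 and nTKO signals of 7.97 and 7.75 (log2 fold change -0.33). Gpam, which starts glycerolipid synthesis in mitochondria, measured 8.16, 8.19 and 8.49, then 8.59 and 8.77 (0.40). Oxsm, of mitochondrial fatty acid synthesis, was at 0.16 and the sterol exporter Abcg1 at 0.52, also with groups that did not overlap.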

How the data were processed

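The authors deposited log2 signals per probe set. Per the submitters' processing notes, RMA and the Transcriptome Analysis Console were used; their versions and a genome build are not given in the sources used here. The method gives all arrays one distribution of probe signals, which hides a change common to most genes, and dim or rounded values tie (26% of genes repeat a value on 3 or more arrays). Probe sets were named from the platform annotation (34945 with 1 symbol, 932 with several, 9160 with none). A gene took its brightest probe set by mean, which gave 18193 genes. The genotype test was that of limma 3.58.1, run in R 4.3.3 (lmFit, eBayes with trend, two-sided, Benjamini-Hochberg, threshold 0.05), tested on simulated data; 3 residual and 1.23 prior degrees of freedom limit its precision. Probe sets were fitted likewise.

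Members and lists were chosen with earlier results of these data known. Every array's values were given for members with groups that do not overlap, an unadjusted p under 0.05 or the 2 largest differences of an arm, and for others chosen after their values were seen. Of the other pathway list, the 4 smallest p-values are named. Alternatives covered the filter, normalization, variance model, array weights, age, replicate number, probe sets and mice left out. The mice have separate animal numbers. Some items are not reported here.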

Additional observations from a re-analysis of the deposited data

How the results depend on the processing

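In every setting run, 0 members and 0 genes had a limma adjusted p under 0.05 (689 genes and 1 member before adjustment). The member count at an unadjusted p under 0.05 was 3 with log2 age as a covariate, 8 without both mice that stand apart, and 0 to 11 with 1 mouse left out. The median of the control arm was 0.23 with the age covariate, 0.20 as the difference of nTKO 2 and nDKO 1, mice close in age, 0.105 without both mice, and -0.23 to 0.14 with 1 mouse left out. That of the sterol arm was 0.115 without both mice. That of the fatty acid arm was 0.11 with array weights and -0.10 to 0.18 with 1 mouse left out. With the replicate number as a block the unadjusted count was 2 and no sign changed; 2 numbers are shared, the deviations of same-numbered mice correlated at 0.42 and 0.34, and the numbers are not known to pair mice.

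Signs changed in these settings, and the cause was not tested. Over all probe sets this held for Acaca (0.020), and with array weights for Acaca (0.11), Elovl6 (0.20), Hsd17b7 (0.051), Idi1 (0.020) and Sc5d (0.034). With the age covariate it held for Acly (-0.051), Acss2 (0.56), Cyp51 (0.065), Dhcr7 (-0.090), Ebp (0.0069), Fdft1 (0.28), Fdps (0.076), Mvd (0.012), Nsdhl (0.20), Pmvk (0.0080), Scd2 (0.016), Sqle (0.10) and Srebf1 (0.23). Between those mice close in age it held for Acly (-0.09), Acss2 (0.63), Dhcr7 (-0.06), Fdft1 (0.25), Nsdhl (0.13), Scd2 (0.01) and Srebf1 (0.20). Without both mice it held for Cyp51 (0.105), Dhcr7 (-0.055), Elovl6 (0.13), Fdft1 (0.125), Fdps (0.035), Hmgcs1 (0.185), Hsd17b7 (0.15), Idi1 (0.18), Msmo1 (0.115), Mvd (0.145), Mvk (0.070), Nsdhl (0.095), Sc5d (0.125), Sqle (0.17) and Srebf1 (0.105). With 1 mouse left out the ranges were Acaca -0.33 to 0.18, Acss2 -0.24 to 0.19, Cyp51 -0.31 to 0.070, Dhcr7 -0.057 to 0.20, Elovl6 -0.18 to 0.28, Fdft1 -0.29 to 0.17, Fdps -0.77 to 0.013, Hmgcs1 -0.39 to 0.03, Hsd17b7 -0.30 to 0.09, Idi1 -0.345 to 0.075, Insig1 -0.58 to 1.02, Lss -0.02 to 0.07, Mvd -0.20 to 0.077, Nsdhl -0.54 to 0.11, Sc5d -0.15 to 0.055, Sqle -0.61 to 0.11 and Srebf1 -0.23 to 0.14. Fasn, Insig2, Scap, Scd1, Srebf2 and Stard4 kept their sign in the 16 alternatives run. The filter and the variance models leave a fold change as it is, so no sign could change there. The replicate block gave the same fold changes as leaving out nDKO 3 (Insig2 0.56 in each), so these settings are not independent checks.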
